A study of Mus musculus with 21 samples.

Results

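Axon guidance ligands and receptors were examined on 21 microarrays of sorted mouse medulloblastoma cells. They were taken as every probe set whose gene symbol begins with the family names of the class 3 to 7 semaphorins, plexins, Eph receptors, ephrins, Robo, Unc5 or numbered netrins, together with Nrp1, Nrp2, Dcc and Slit1 to Slit3. This gave 156 of the 45101 probe sets, for 71 gene symbols. Of these symbols 35 were ligands and 33 were receptors. The other 3, Unc50, Unc5cl and Plxna4os1, shared the letters of a family name without belonging to it.

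The arrays, from Affymetrix, held total RNA of primary tumour cells from the cerebellum of Patched mice. Patched (Ptch1) restrains Hedgehog signalling, and mice that lose it develop medulloblastoma from granule neuron precursors. Cells had been sorted for CD15, a surface carbohydrate of several progenitor types. There were 4 groups by title: Math1-GFP CD15 positive (n = 4), Math1-GFP CD15 negative (n = 5), conventional CD15 positive (n = 6) and conventional CD15 negative (n = 6). All arrays were of Patched tumours, and no normal tissue or unsorted tumour was among them. Math1, also named Atoh1, drives the formation of granule neuron precursors, and GFP is a green fluorescent protein used as a reporter. The descriptions of the 9 Math1-GFP samples name their tumours conventional as well, and grouping here follows the titles. Strain, age, Patched allele and pooling were not given in the sources used here. Whether each sample was a separate animal is not said in the labels, and the spread behind the p-values may then be partly technical.

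Guidance cues steer growing axons and migrating neurons by binding receptors on the cell surface. Semaphorins act mostly through plexins, and the secreted class 3 members also need neuropilins. Ephrins are membrane-bound ligands of the Eph receptor tyrosine kinases, and ephrin-B proteins can also signal back into their own cell. Netrins attract through Dcc and repel through Unc5 receptors, and Slits repel through Robo receptors. In the developing mouse cerebellum, Sema6a with plexin-A2 and Sema4g with plexin-B2 act in granule cell development, and loss of Unc5c misplaces granule cells.

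Values below are deposited probe set signals on a linear scale, in arbitrary units. Groups of 4 or 5 arrays are given array by array in the order of their title numbers, and groups of 6 or more by the lowest, the median and the highest array. Changes are log2 fold changes of signal + 32 from limma, for 12367 genes each represented by its brightest probe set. The addition of 32 makes changes of dim genes smaller. A gene passed at a Benjamini-Hochberg adjusted p under 0.05. Levels of different probe sets are not set against each other, since probe sets differ in brightness for the same amount of RNA.

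Of the 71 symbols, 54 passed the filter on dim probe sets (a mean level of about 15.5) and 17 did not. The genes left out were Epha1, Epha10, Epha4, Epha6, Ephb4, Ntn5, Robo4, Sema3b, Sema3d, Sema5a, Slit1, Slit2, Slit3, Unc5a, Unc5d, and the name matches Plxna4os1 and Unc5cl. All 3 Slits were among them, with median signals of 1.83 to 11.02 over their 6 probe sets. The tested genes were 17 of 20 semaphorins, all 9 plexins, both neuropilins, all 8 ephrins, 8 of 13 Eph receptors, 3 of 4 netrins, 3 of 5 netrin receptors, 3 of 4 Robos and Unc50.

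Before the results, 4 conventional arrays need naming. The conventional arrays numbered 6 and those without a number, one of each CD15 fraction, stood apart from conventional arrays 2 to 5. Over all probe sets the mean correlation was 0.968 within arrays 2 to 5 and 0.974 within the other 4, but 0.953 between the sets. With the Math1-GFP arrays the mean correlation was 0.958 for these 4 and 0.941 for arrays 2 to 5. Between-model results that lost their call against these 4 arrays alone are given with that value. In 8 of the 54 guidance genes tested (14.8%) arrays 2 to 5 did not overlap the 4 others, against 10.2% of all genes tested. Efna4, Epha7, Nrp1, Ntn1, Sema3a and Sema3c were higher on arrays 2 to 5, and Epha8 and Unc50 were lower there.

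The first question was how the guidance genes of CD15 positive cells differ from those of CD15 negative cells in conventional tumours. In these tumours 8 guidance genes fell in CD15 positive cells and 0 rose. They were the transmembrane semaphorins Sema4g, Sema6a and Sema6b, the receptors Plxna3 and Nrp2, the ephrins Efnb2 and Efnb3, and the receptor Ephb1. Ligands and receptors were both among them (5 of 28 ligands and 3 of 25 receptors tested). The 8 genes are 14.8% of the 54 tested; in the whole fit 8.13% of genes passed, 5.09% lower and 3.05% higher. Of the 54 estimates 41 were negative, with a median log2 fold change of -0.23, against -0.017 over all genes tested. These are bulk samples, in which fewer cells of a type and less RNA per cell cannot be told apart.

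**Figure D1:**
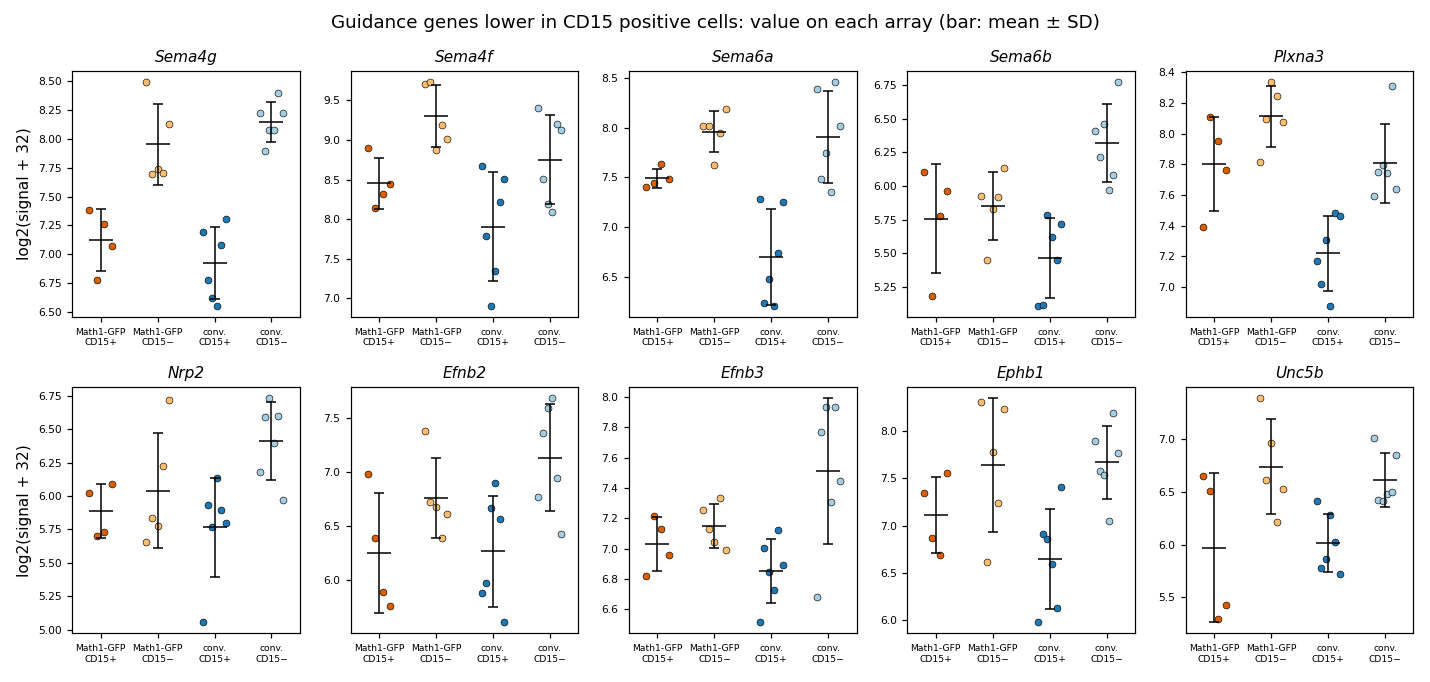
Value on each array of the 10 guidance genes that were lower in CD15 positive cells in conventional tumours or in the average over both tumour models; the y axis is log2(signal + 32), each point is 1 array, and bars are the group mean ± SD (n = 4, 5, 6 and 6 from left to right). All Sema4g points of CD15 positive cells lie below all points of CD15 negative cells of the same tumour model, while Sema6b separates the fractions in conventional tumours but not in Math1-GFP tumours.

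Sema4g, a transmembrane semaphorin that binds plexin-B2, had signals of 135, 77.6, 122 and 103 on the Math1-GFP CD15 positive arrays and 328, 175, 181, 176 and 248 on the Math1-GFP CD15 negative arrays. In conventional tumours its signals were 61.9, 90.6 and 127 (lowest, median and highest) in CD15 positive cells and 206, 252 and 305 in CD15 negative cells. Every CD15 positive array of a model thus lay below every CD15 negative array of it. The log2 fold change in conventional tumours was -1.22 ± 0.16 (standard error, adjusted p = 0.000149).

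Sema6a, a ligand of plexin-A2 and plexin-A4, had signals of 41.7, 65.7 and 124 in conventional CD15 positive cells and 131, 205 and 320.0 in conventional CD15 negative cells, with no overlap. Its log2 fold change was -1.21 ± 0.21 (standard error, adjusted p = 0.00125). This value is that of the brightest of 3 probe sets. The other 2 were at -0.36 and 0.07, neither passing, and the mean of the 3 did not pass, at -0.50 (adjusted p = 0.0866). The fall of Sema6a was therefore seen with 1 of its 3 probe sets.

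Sema6b, which belongs to the same transmembrane class, had signals of 2.49, 14.5 and 23.3 in conventional CD15 positive cells and 30.7, 47.8 and 77.4 in conventional CD15 negative cells, again without overlap. Its log2 fold change was -0.85 ± 0.17 (standard error, adjusted p = 0.00416) on a dim probe set. The other class 6 members leaned the same way without passing: Sema6c, named with Sema6d to complete the class, was at -0.77 (adjusted p = 0.129) and Sema6d at -0.56 (adjusted p = 0.22). All 4 class 6 semaphorins had negative estimates, with a median of -0.81. Of the class 4 semaphorins 5 of 6 were negative (median -0.40) and of the tested class 3 semaphorins 4 of 5 (median -0.24), with 0 of the class 3 members passing. Over all 17 semaphorins tested, 3 fell, 0 rose and 14 did not pass.

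Among semaphorin receptors, Plxna3 and Nrp2 together form a receptor for the secreted semaphorin Sema3f. Plxna3 had signals of 85.4, 119 and 147 in conventional CD15 positive cells and 161, 183 and 285 in conventional CD15 negative cells, with no overlap. The log2 fold change was -0.59 ± 0.15 (standard error, adjusted p = 0.0148), and the second probe set gave -0.87 (adjusted p = 0.00163 in the fit of every probe set). Nrp2 had signals of 1.29, 25.7 and 38.2 in conventional CD15 positive cells and 30.8, 58.2 and 74.2 in conventional CD15 negative cells, which overlap, and a log2 fold change of -0.65 ± 0.19 (standard error, adjusted p = 0.0381). The lowest Nrp2 value was that of the unnumbered CD15 positive array. Sema3f itself was at 0.18 ± 0.40 (adjusted p = 0.848) and Nrp1 at 0.04 ± 0.50 (adjusted p = 0.978); Sema3f is named here for its pairing with these receptors. Of the 9 plexins, 1 fell and 8 had negative estimates, with a median of -0.25.

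The 2 ephrins that fell were both of the transmembrane B class. Efnb2 had signals of 16.7, 46.6 and 86.9 in conventional CD15 positive cells and 54.1, 111 and 173 in conventional CD15 negative cells, and a log2 fold change of -0.86 ± 0.26 (standard error, adjusted p = 0.0446). Its second probe set gave -0.75 and a dimmer one -0.14. Efnb3 had signals of 59.4, 84.8 and 107 in conventional CD15 positive cells and 70.8, 164 and 213 in conventional CD15 negative cells, with a log2 fold change of -0.66 ± 0.17 (standard error, adjusted p = 0.0188). For both genes the fractions overlap. Efnb1, the remaining B class member, was at 0.00 ± 0.14, and the 5 ephrin-A genes lay between -0.28 and 0.03, with 0 passing.

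Ephb1, a receptor kinase for ephrin-B ligands, had signals of 31.1, 74.3 and 138 in conventional CD15 positive cells and 101, 172 and 259.9 in conventional CD15 negative cells. The log2 fold change was -1.02 ± 0.28 (standard error, adjusted p = 0.0275), and the groups overlap. The other EphB receptors tested were at -0.20 (Ephb3) and -0.37 (Ephb6) without passing. The 5 EphA receptors tested lay between -0.20 and 0.16, with a median of -0.07 and 0 passing.

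No netrin, netrin receptor or Robo passed in conventional tumours. Dcc, the receptor through which netrin-1 attracts axons, had signals of 376, 1234 and 2798 in conventional CD15 positive cells and 1015, 2199 and 4504 in conventional CD15 negative cells. Its log2 fold change was as large as that of Ephb1 but with a wider error, at -1.07 ± 0.40 (standard error, adjusted p = 0.107). All 3 netrin receptors tested had negative estimates (median -0.60); Unc5b was at -0.60 with no overlap between the fractions, and Unc5c at -0.59. Ntn4 was at -0.45 ± 0.20 (standard error, adjusted p = 0.194) and Robo3, a Robo of commissural axons, at -0.41 ± 0.31 (standard error, adjusted p = 0.476). In all, 5 of the 54 genes (Sema4g, Sema6a, Sema6b, Plxna3 and Unc5b) had every CD15 positive array below every CD15 negative array, and 0 had the reverse. Over all genes tested the shares were 2.52% and 1.89%.

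The number in the titles pairs conventional arrays 2 to 6, as same-numbered arrays deviated together from their group means. With that number as a block, and the unnumbered arrays left out, 9 guidance genes fell, where 6.33% of all genes did: Dcc at -1.24 (adjusted p = 0.00319), Sema3c and Sema4f passed and Ephb1 (adjusted p = 0.101) and Nrp2 (adjusted p = 0.0723) did not. With the unnumbered arrays as a further pair 12 fell, beside 8.27% of all genes, which were the 8 named above with Dcc, Ntn4, Sema4f and Sema6c. Without conventional CD15 negative array 5 the count was 4 (Sema4g, Sema6a, Sema6b and Plxna3), with no share of all genes given for that fit. These 4 passed whichever single array was left out. Efnb3 did not pass without CD15 negative array 5, while Ephb1, Nrp2 and Efnb2 each lost the call with any of several arrays left out, the highest adjusted p being 0.0782 for Ephb1, 0.0903 for Nrp2 and 0.102 for Efnb2. Within conventional arrays 2 to 5, 7 fell (4.72% of all genes did), and within the 4 arrays that stood apart 0 passed, where 0 genes of the whole table did; there Sema4g was at -0.97 (adjusted p = 0.332) and Sema6a at -0.94 (adjusted p = 0.211).

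**Figure D2:**
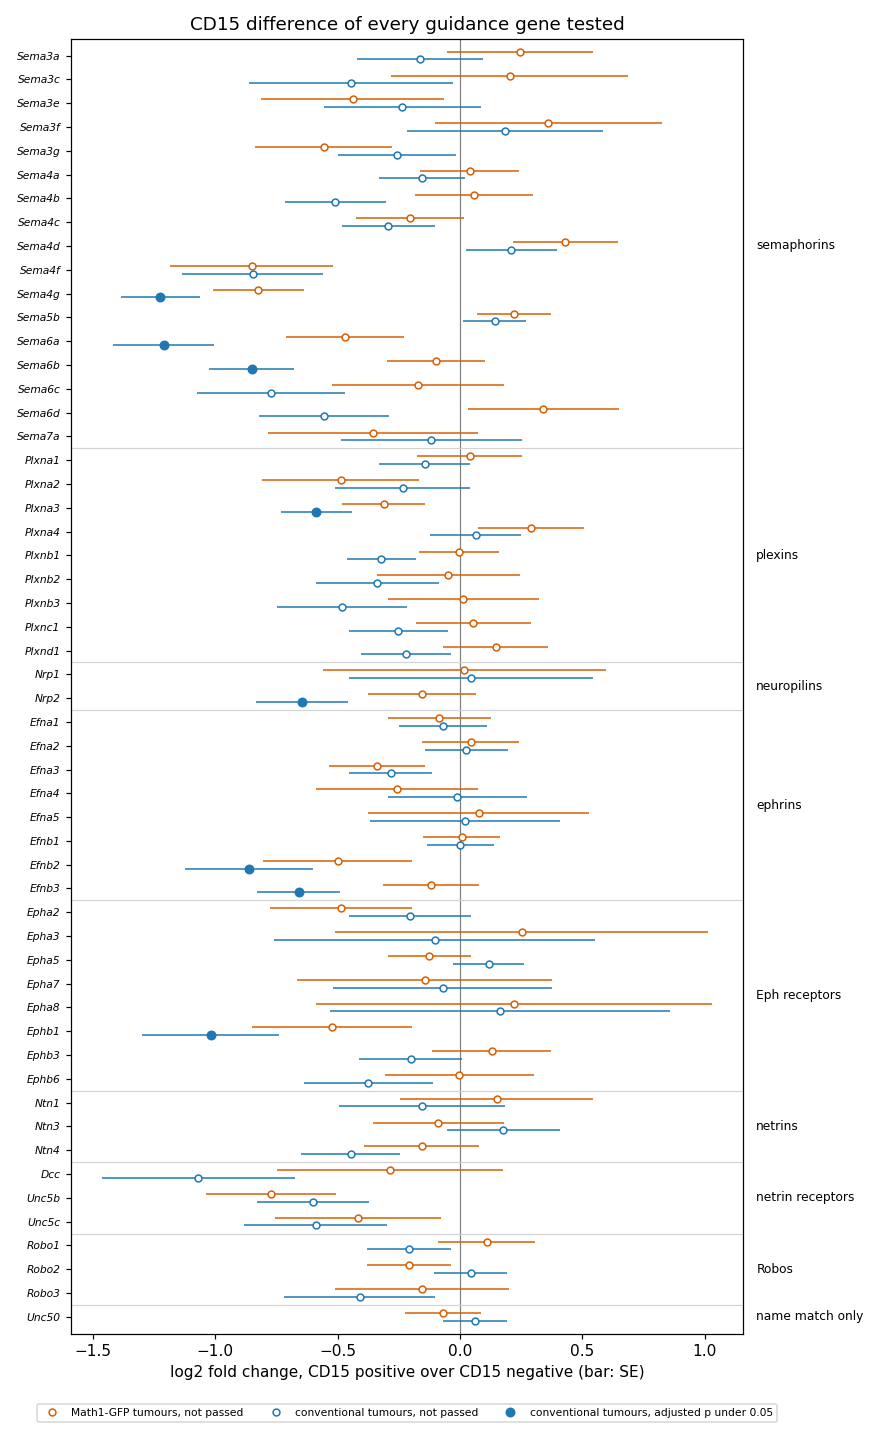
Log2 fold change of CD15 positive over CD15 negative cells (x axis) for each of the 54 guidance genes tested, by family, in Math1-GFP tumours (orange) and conventional tumours (blue); bars are standard errors and filled points passed an adjusted p of 0.05. Of the blue points 41 lie left of 0 and 8 are filled, while no orange point is filled.

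The fractions of Math1-GFP tumours were compared likewise. No guidance gene passed there, and limma called 5 of the 12367 genes (0.0404%), 0.0162% higher and 0.0243% lower. Of the guidance genes 3 had an unadjusted p under 0.05, a threshold to which those shares do not apply. The share of all genes at that threshold is not given here, so the 3 are no result about the guidance genes. Sema4g had the smallest p of the guidance genes, at -0.83 ± 0.19 (standard error, adjusted p = 0.0958), and was the only one of the 54 whose groups did not overlap. All arrays were separated in this direction for 2.78% of the genes tested, and in the other for 2.54%. With the conventional replicate number as a block Sema4g passed at -0.83 (adjusted p = 0.0315), as did Sema4f. Math1-GFP arrays share no number and stay unpaired in that fit, which also leaves out the unnumbered conventional arrays.

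Unc5b, a repulsive netrin receptor, had signals of 68.3, 58.8, 7.18 and 11.1 on the Math1-GFP CD15 positive arrays and 136, 65.8, 92.5, 42.3 and 60.1 on the CD15 negative arrays. Its log2 fold change was -0.77 ± 0.27 (standard error, adjusted p = 0.308). The remaining gene with an unadjusted p under 0.05 was Sema4f, a transmembrane semaphorin, with signals of 446, 249.5, 288 and 317 on the CD15 positive arrays and 802, 819, 439, 549.8 and 485 on the CD15 negative arrays. Its log2 fold change was -0.85 ± 0.33 (standard error, adjusted p = 0.401); it is named here after its values were seen. The other genes of smallest p in their families were Plxna3 at -0.31, Nrp2 at -0.16, Efna3 at -0.34, Epha2 at -0.49, Ntn4 at -0.16 and Robo2 at -0.21, with adjusted p between 0.64 and 0.929. Of the 54 estimates 32 were negative, with a median of -0.09.

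Whether the CD15 difference depended on the tumour model was tested as an interaction. In limma no guidance gene and no gene of the whole table passed (279 genes of the table had an unadjusted p under 0.05). Among the guidance genes 3 had an unadjusted p under 0.05, all of them class 6 semaphorins. The Sema6b probe set is dim, and the Sema6a value is that of the brightest of its 3 probe sets. Sema6b differed by 0.76 ± 0.26 (SE, adjusted p = 1), Sema6d by 0.90 ± 0.41 and Sema6a by 0.74 ± 0.32, of which Sema6d and Sema6a are named after their values were seen. On the Math1-GFP arrays Sema6b had signals of 36.7, 4.40, 22.8 and 30.5 in CD15 positive cells and 28.9, 11.8, 24.98, 28.5 and 38.4 in CD15 negative cells, which overlap. In the other families the genes of smallest p differed by 0.32 ± 0.22 for Plxnb1, 0.49 ± 0.29 for Nrp2, 0.54 ± 0.26 for Efnb3, 0.50 ± 0.43 for Ephb1, 0.78 ± 0.61 for Dcc, 0.29 ± 0.31 for Ntn4 and 0.32 ± 0.26 for Robo1.

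Averaged over both models, 8 guidance genes fell in CD15 positive cells and 0 rose, while of all genes tested 9.74% passed, 5.97% lower and 3.77% higher. This average uses the same arrays as the comparisons above and is no separate evidence. With the conventional number as a block 10 fell, Dcc, Efna3 and Efnb3 being added and Ephb1 lost; with the unnumbered pair too 12 fell. Of all genes 8.44% and 9.93% fell in these fits. Sema4g (-1.02 ± 0.12, adjusted p = 3.46e-05) and Sema6a (-0.84 ± 0.16, adjusted p = 0.00164) had the smallest p. Sema4f and Unc5b passed here and not in either model alone: Sema4f had a log2 fold change of -0.85 ± 0.22 (standard error, adjusted p = 0.0166) and Unc5b of -0.69 ± 0.18 (standard error, adjusted p = 0.0153). The suffix of the Sema4f probe set (x) marks probes that may match other transcripts, and the second Sema4f probe set gave -0.48 (adjusted p = 0.0176 in the fit of every probe set). Plxna3 (-0.45), Sema6b (-0.47), Ephb1 (-0.77) and Efnb2 (-0.68) made up the 8. Sema6b lost this call in 4 of 35 alternatives, a pseudocount of 1 among them. Ephb1 lost it in 8 of 36 and Efnb2 in 9 of 36. Nrp2 (-0.40, adjusted p = 0.0838), Ntn4 (-0.30, adjusted p = 0.242) and Robo3 (-0.28, adjusted p = 0.51) were not past the threshold.

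Promoters are shown for 4 of the 10 genes that fell in CD15 positive cells in conventional tumours or in the average over both models (Sema4f passed in the average alone): the 3 whose window held an E-box, the motif bound by basic helix-loop-helix factors such as Atoh1, and Plxna3, whose window held none. The windows are the 250 bases before the start of the gene, from RefSeq (GRCm38.p6), 5′ to 3′ on the gene's strand. They lie at chr19:44989094-44989343 (plus strand, Sema4g), chr6:82939770-82940019 (minus strand, Sema4f), chr8:8661243-8661492 (minus strand, Efnb2) and chrX:74328816-74329065 (plus strand, Plxna3). Capitals mark each CANNTG.
Sema4g: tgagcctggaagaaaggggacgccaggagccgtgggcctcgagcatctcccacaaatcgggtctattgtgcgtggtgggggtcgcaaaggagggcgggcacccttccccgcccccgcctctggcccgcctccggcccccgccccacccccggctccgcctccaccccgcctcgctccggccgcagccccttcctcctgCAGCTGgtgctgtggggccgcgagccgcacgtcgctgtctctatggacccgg
Sema4f: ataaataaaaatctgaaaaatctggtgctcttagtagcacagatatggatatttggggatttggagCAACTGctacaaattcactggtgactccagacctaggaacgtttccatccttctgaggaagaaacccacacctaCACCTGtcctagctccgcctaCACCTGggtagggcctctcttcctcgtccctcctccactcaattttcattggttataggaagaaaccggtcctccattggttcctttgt
Efnb2: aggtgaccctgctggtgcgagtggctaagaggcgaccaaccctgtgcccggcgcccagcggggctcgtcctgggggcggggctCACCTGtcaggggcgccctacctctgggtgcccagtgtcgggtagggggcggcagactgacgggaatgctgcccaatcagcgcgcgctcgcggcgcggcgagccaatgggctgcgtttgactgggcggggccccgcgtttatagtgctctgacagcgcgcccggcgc
Plxna3: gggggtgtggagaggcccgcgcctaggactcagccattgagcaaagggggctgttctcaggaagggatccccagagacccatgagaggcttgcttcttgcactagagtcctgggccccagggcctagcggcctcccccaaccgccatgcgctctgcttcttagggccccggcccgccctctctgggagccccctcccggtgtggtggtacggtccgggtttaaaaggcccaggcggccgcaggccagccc
Of the 10 genes that fell in conventional tumours or in the average, 8 had a window that was searched, 9 windows in all. Windows on 1 chromosome were left out for these genes, but not from the shares that follow. Of the 9 windows 3 held CANNTG, a motif that reads the same on both strands. It was present in 66.2% of all 32851 windows of this length and in 44.4% of the 63 windows of guidance genes tested. CAGCTG, one form of that motif and counted within it, was in 1 of the 9 windows (Sema4g), in 4271 of all 32851 windows and in 12.7% of those of guidance genes tested. A match describes these letters and is not a binding site.

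Genes that carry the signals of these receptors inside the cell, or assist them, were taken from 4 lists. In conventional tumours 11 of them fell in CD15 positive cells and 0 rose, where 8.13% of all genes tested passed and 5.09% fell. Of 24 semaphorin and plexin transducers tested, 4 fell (16.7%; median -0.14). L1cam, an adhesion molecule that joins neuropilin-1 in the receptor for Sema3a, was at -2.22 ± 0.29 (standard error, adjusted p = 0.000145), and Dpysl3, a member of the family of collapsin response mediators, at -1.97 ± 0.27 (standard error, adjusted p = 0.000229). Cdk5r1, the neuronal activator of Cdk5, was at -1.11 ± 0.17 (standard error, adjusted p = 0.000529) and the kinase Fyn at -0.46 ± 0.13 (standard error, adjusted p = 0.0373). Of 14 Slit and Robo partners tested 3 fell, namely Srgap3 at -1.52 ± 0.21 (standard error, adjusted p = 0.000202), Srgap2 at -0.57 ± 0.11 (standard error, adjusted p = 0.00232) and Usp33, a deubiquitinase that binds Robo1, at -0.52 ± 0.12 (standard error, adjusted p = 0.00819). Of 20 netrin transducers and partners tested 3 fell, namely Lrrc4 at -0.57 ± 0.15 (standard error, adjusted p = 0.0215), Elmo1 at -1.03 ± 0.29 (standard error, adjusted p = 0.0341) and Evl at -0.39 ± 0.12 (standard error, adjusted p = 0.0447). Of 22 Eph and ephrin transducers tested 1 fell (4.55%), the scaffold protein Pick1 at -0.52 ± 0.14 (standard error, adjusted p = 0.0292). No transducer passed in Math1-GFP tumours.

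Neuronal differentiation genes also differed between the conventional fractions. Of 15 tested, 12 fell in conventional CD15 positive cells, where 8.13% of all genes passed, and in Math1-GFP tumours 0 passed. The summed signal of that list was 9334 to 14888 in Math1-GFP CD15 positive cells, 14804 to 23303 in Math1-GFP CD15 negative cells, 8241 to 14442 in conventional CD15 positive cells and 16953 to 33734 in conventional CD15 negative cells. Array 5 was the highest of each conventional group. Of 19 G2 and M phase genes tested, 18 rose in conventional CD15 positive cells, with sums of 29648 to 38118 against 12080.0 to 24228 in CD15 negative cells. Of 12 granule neuron precursor genes, all above the level of the filter in each group by their median, 4 fell. The part of these differences in the guidance genes' values was not tested. Markers of microglia, neutrophils, endothelial cells, mural cells, oligodendrocytes and astrocytes had 0 genes passing between the conventional fractions. Mural cell and fibroblast markers nevertheless had negative estimates in 9 of 9 cases (median -0.59), with sums of 245 to 1791 in CD15 positive and 302 to 4726 in CD15 negative cells. In Math1-GFP tumours 8 of these 9 were positive. Microglia and macrophage markers were positive in 11 of 12 cases in conventional tumours (median 0.72). The part of these cells in the guidance genes' values was not tested either.

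The second question was how the guidance genes differ between the tumour models. In Math1-GFP tumours 9 guidance genes were higher than in conventional tumours and 3 were lower. These 12 are 22.2% of the 54 tested; in the whole fit 39.2% of genes passed, 18.7% higher and 20.5% lower. Those higher were the receptors Epha8, Epha3, Plxnb2, Plxna3, Unc5c and Dcc and the semaphorins Sema4d, Sema3e and Sema6a. Those lower were the ligands Efna2 and Sema3c and the name match Unc50. The calls of Epha8 and Sema3c have no weight as tests, as set out below. Receptors passed in 6 of 25 cases, all higher, with a median of 0.20. Ligands passed in 5 of 28 cases, 3 higher and 2 lower, with a median of -0.09. The model coincides with the ending of the titles (le2 for Math1-GFP and le1 for conventional arrays), so model and any run that this ending stands for cannot be told apart. Same-numbered conventional arrays deviated together, yet the fit counts each array as separate, so p-values between models may be too small. Under quantile normalization 7 were higher and 5 lower, beside 14.5% and 24.7% of all genes.

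**Figure D3:**
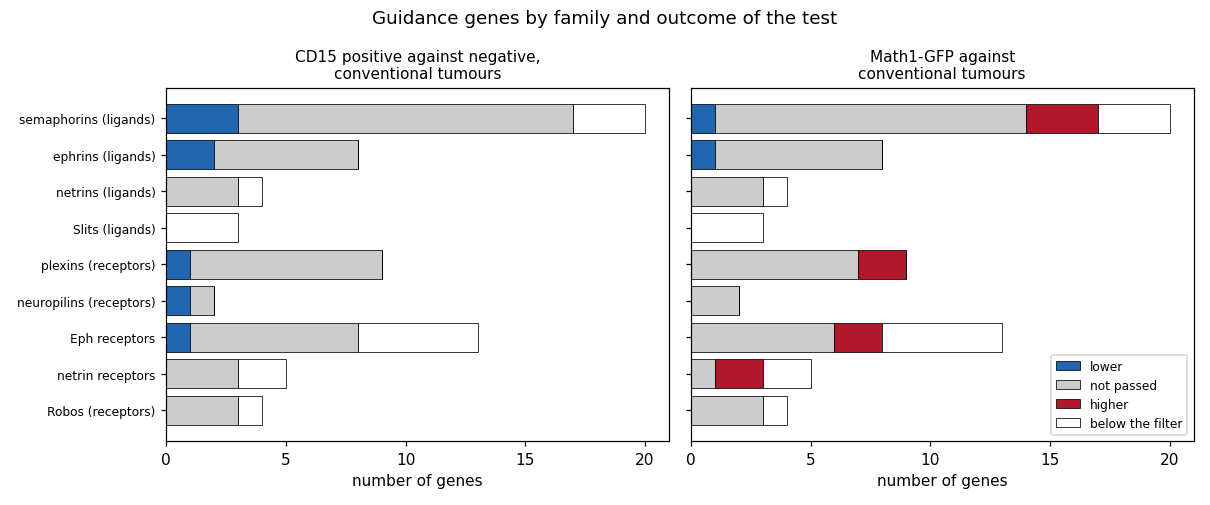
Number of guidance genes of each family (x axis) that were lower, did not pass, were higher or were too dim to be tested, for CD15 positive against negative cells of conventional tumours (left) and Math1-GFP against conventional tumours (right). On the left 5 of the 9 families hold a gene that fell and none holds one that rose; on the right plexins, Eph receptors and netrin receptors hold only genes that rose among those that passed.

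Epha8, an Eph receptor kinase, had the largest difference of the guidance genes. Its signals were 339.6, 501, 571 and 477 on the Math1-GFP CD15 positive arrays and 221, 537, 459, 465 and 366 on the Math1-GFP CD15 negative arrays, against 3.46, 9.92 and 605 (lowest, median and highest) on the 12 conventional arrays. The conventional arrays were of 2 kinds: arrays 2 to 5 had 3.46, 4.27 and 35.7 and the 4 that stood apart 145, 360.3 and 605. All arrays 2 to 5 thus lay below all Math1-GFP arrays, while the 4 others overlapped them. The log2 fold change over all conventional arrays was 2.48 ± 0.53 (standard error, adjusted p = 0.00108). Against arrays 2 to 5 alone it was 3.51 (adjusted p = 3.65e-10), and against the 4 others alone 0.42 (adjusted p = 0.39). The medians of all conventional arrays (9.92) and of arrays 2 to 5 (4.27) lie below the level of the filter, about 15.5. Epha8 passed that filter through the arrays where it is high. The size of its fold change is therefore uncertain. Its calls over all conventional arrays and against arrays 2 to 5 have no weight as tests.

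Sema3c, a secreted semaphorin that signals through neuropilins, showed the same division in the other direction. It had signals of 1.18, 7.05 and 14.1 on the 9 Math1-GFP arrays, against 50.1, 77.3 and 254 on conventional arrays 2 to 5 and 0.572, 4.99 and 8.90 on the 4 that stood apart. All Math1-GFP values and those of the 4 others lie below the level of the filter, about 15.5, so Sema3c was tested only because arrays 2 to 5 are high. The size of its fold change is therefore uncertain, being against a probe set near background, and its call has no weight as a test. The log2 fold change was -1.08 ± 0.32 (standard error, adjusted p = 0.0112) over all conventional arrays and 0.10 (adjusted p = 0.509) against the 4 others alone. Its receptor Nrp1 had signals of 39.2, 74.1 and 122 on the Math1-GFP arrays, against 108, 271 and 564 on arrays 2 to 5 and 32.9, 41.1 and 55.4 on the 4 others. Nrp1 did not pass over all conventional arrays (-0.72 ± 0.38, adjusted p = 0.143); it was lower in Math1-GFP tumours against arrays 2 to 5 at -1.35 (adjusted p = 0.000878) and on the other side of 0 against the 4 others at 0.56 (adjusted p = 0.0645). 

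Plxna3 and Epha3 were higher in Math1-GFP tumours against either set of conventional arrays. Plxna3 had signals of 136, 238 and 291 on the Math1-GFP arrays and 85.4, 154 and 285 on the conventional arrays, with a log2 fold change of 0.45 ± 0.11 (standard error, adjusted p = 0.00363); its second probe set gave 0.69. Epha3, a receptor for ephrin-A ligands, had signals of 449.6, 661 and 849.7 on the Math1-GFP arrays and 7.12, 369.6 and 973 on the conventional arrays, with a log2 fold change of 1.33 ± 0.50 (standard error, adjusted p = 0.0401). All 4 Epha3 probe sets gave estimates between 1.33 and 1.77. The spread of Epha3 was wide in conventional tumours and narrow in Math1-GFP tumours, and the groups overlap. Plxna3 kept its call in all 38 alternatives and Epha3 in 19 of 38. Epha3 did not pass, for example, with no filter or with the set of conventional arrays as a block.

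Plxnb2, the plexin of granule cell precursors, had signals of 1342, 1764 and 2511 on the Math1-GFP arrays and 586, 996 and 1799 on the conventional arrays, with a log2 fold change of 0.79 ± 0.19 (standard error, adjusted p = 0.00301). Its ligand Sema4g did not differ beyond its error, at 0.00 ± 0.12 (standard error, adjusted p = 0.99). Sema4d, a ligand of plexin-B1, had signals of 119, 273 and 359 on the Math1-GFP arrays and 111, 154 and 255 on the conventional arrays, and a log2 fold change of 0.57 ± 0.14 (standard error, adjusted p = 0.00333). Sema3e, which binds plexin-D1 without a neuropilin, had signals of 588, 1024 and 1991 on the Math1-GFP arrays and 309, 637 and 1220.2 on the conventional arrays, and a log2 fold change of 0.75 ± 0.25 (standard error, adjusted p = 0.0198). Against the 4 conventional arrays that stood apart none of these 3 passed: Plxnb2 was at 0.22 (adjusted p = 0.408), Sema4d at 0.48 (adjusted p = 0.128) and Sema3e at 0.20 (adjusted p = 0.641).

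The netrin receptors Unc5c and Dcc were both higher in Math1-GFP tumours. Unc5c had signals of 34.03, 73.2 and 179 on the Math1-GFP arrays and 5.03, 24.6 and 110.5 on the conventional arrays, with a log2 fold change of 0.63 ± 0.22 (standard error, adjusted p = 0.0293). Dcc had signals of 1984, 2607 and 3529 on the Math1-GFP arrays and 376, 2008 and 4504 on the conventional arrays, with a log2 fold change of 0.80 ± 0.30 (standard error, adjusted p = 0.0425). All 3 Dcc probe sets were positive, between 0.80 and 1.15. Against the 4 conventional arrays that stood apart neither passed, Unc5c being at 0.26 (adjusted p = 0.544) and Dcc at 0.38 (adjusted p = 0.052). Unc5c did not pass after quantile normalization (adjusted p = 0.0796), and Dcc did. Over all 38 alternatives, however, Dcc lost its call in 21 and Unc5c in 7. Those of Dcc included no filter and a pseudocount of 1. Of their ligands, over all conventional arrays, Ntn3 was at 0.33 ± 0.18 (adjusted p = 0.146), and Ntn1 was at -0.05 ± 0.26 (adjusted p = 0.905) with a second probe set at 0.68 (adjusted p = 1.59e-05 in the fit of every probe set). The Ntn1 value averages over unlike arrays: its signals were 291, 635 and 693 on the Math1-GFP arrays, against 538, 725 and 999 on conventional arrays 2 to 5 and 234, 261 and 378 on the 4 others. Ntn1 was lower in Math1-GFP tumours against arrays 2 to 5 and higher against the 4 others. Ntn1 is named as the ligand of both receptors.

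Sema6a was higher in Math1-GFP tumours by 0.42 ± 0.16 (standard error, adjusted p = 0.0404), with the 2 other probe sets at 0.80 and 0.83. Against the 4 conventional arrays that stood apart its brightest probe set was at -0.01 (adjusted p = 0.956), and after quantile normalization it did not pass at 0.30 (adjusted p = 0.169).

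All 8 ephrins had negative estimates between the models, with a median of -0.21, under quantile normalization and both other pseudocounts too; Efna2 passed. Efna2, an ephrin anchored to the membrane by a lipid, had signals of 123, 154 and 197 on the Math1-GFP arrays and 173, 228 and 464 on the conventional arrays, and a log2 fold change of -0.56 ± 0.13 (standard error, adjusted p = 0.00195). Against the 4 conventional arrays that stood apart Efna2 did not pass, at -0.33 (adjusted p = 0.067). Its second, dimmer probe set moved the other way, at 0.36 (adjusted p = 0.008 in the fit of every probe set), so the direction of Efna2 rests on the probe set. The same held for Unc50, which is no guidance gene (in C. elegans unc-50 is needed to deliver acetylcholine receptors to the cell surface). Unc50 had a log2 fold change of -0.49 ± 0.10 (standard error, adjusted p = 0.000706) on its brightest probe set and of 0.54 on its dimmest.

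**Figure D4:**
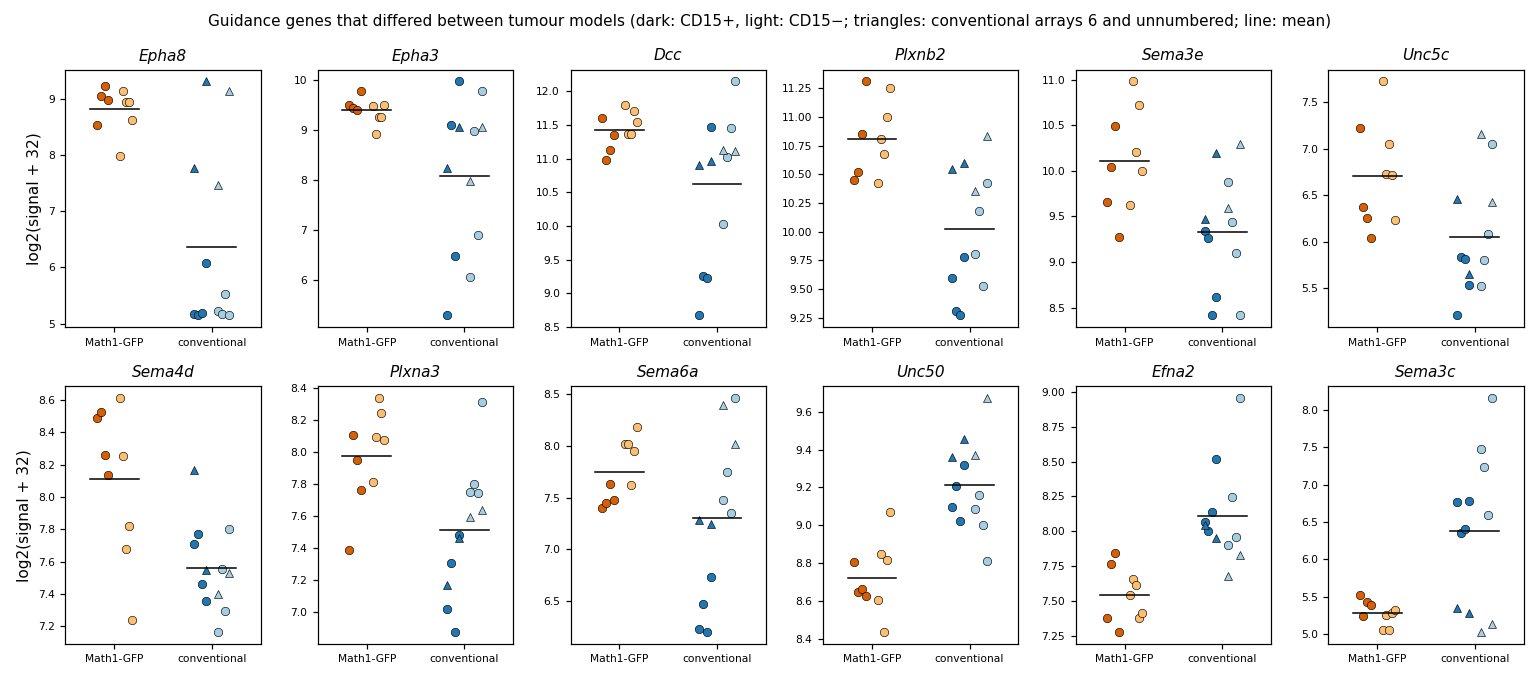
Value on each array of the 12 genes that differed between Math1-GFP and conventional tumours; the y axis is log2(signal + 32), dark points are CD15 positive and light points CD15 negative arrays, triangles are the 4 conventional arrays that stood apart, and lines are means over the 9 Math1-GFP and 12 conventional arrays. For Epha8 and Sema3c the triangles lie among the Math1-GFP values and the other conventional arrays do not.

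With the conventional number as a block, 10 guidance genes were higher and 12 lower in Math1-GFP tumours, 22 of 54, where 46% of all genes tested passed. Those added on the lower side were Efna3, Efna4, Efnb3, Epha5, Nrp1, Ntn4, Plxna1, Sema3a and Sema4a. The model does not vary within a number, so this fit takes the spread between conventional pairs out of the error. Its p-values between models are therefore too small. Against conventional arrays 2 to 5 alone 10 were higher and 12 lower, with 45.9% of all genes passing, and against the 4 that stood apart 3 were higher (Epha3, Plxna3 and Ntn1) and 2 lower (Robo3 and Unc50), with 21.2% of all genes passing. Leaving out single arrays, Epha8, Plxnb2, Sema4d, Plxna3, Unc50, Efna2 and Sema3c passed each time. For Epha8 and Sema3c this adds no support, since their calls have no weight as tests. Sema3e did not pass without Math1-GFP CD15 positive array 7. Unc5c, Epha3, Sema6a and Dcc each lost the call with any of several arrays left out. The highest adjusted p was then 0.0769 for Unc5c, 0.0697 for Epha3, 0.0747 for Sema6a and 0.0779 for Dcc. Over 38 alternatives of processing and arrays, the call was lost in 7 for Unc5c, 19 for Epha3, 20 for Sema6a and 21 for Dcc. Sema6a changed sign in 1 more. Robo3 was at -0.48 ± 0.24 (adjusted p = 0.115) over all conventional arrays. Its signals were 1.18, 5.95 and 56.8 (lowest, median and highest) on the Math1-GFP arrays and 27.5, 38.0 and 65.5 on the 4 that stood apart. The Math1-GFP median lies below the level of the filter, about 15.5. The call of Robo3 against those 4 arrays therefore has no weight as a test. No guidance gene had Math1-GFP arrays all above or all below the 12 conventional arrays, where 1.35% and 3.57% of all genes tested did.

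Between the models 11 of 24 semaphorin and plexin transducers passed, 10 of 22 Eph and ephrin transducers, 6 of 20 netrin transducers and partners and 5 of 14 Slit and Robo partners, beside 39.2% of all genes tested. Rgmb, a ligand of the netrin receptor neogenin, was higher in Math1-GFP tumours at 1.20 ± 0.12 (standard error, adjusted p = 4.73e-07), as was the glypican Gpc1, which binds Slits, at 1.00 ± 0.13 (standard error, adjusted p = 8.69e-06). The actin-severing protein Cfl1 was lower at -0.68 ± 0.09 (standard error, adjusted p = 1.39e-05), as was the kinase Limk1, which acts on it, at -0.97 ± 0.19 (standard error, adjusted p = 0.000385). Of 12 microglia and macrophage genes tested, all 12 were lower in Math1-GFP tumours. Their summed signal was 521 to 2506 in Math1-GFP CD15 positive cells, 337 to 819.9 in Math1-GFP CD15 negative cells, 1012 to 15105 in conventional CD15 positive cells and 445 to 5518 in conventional CD15 negative cells. The sums of conventional arrays 2 to 5 ranged from 867 to 15105 and those of the 4 that stood apart from 445 to 1196. Of 9 mural cell and fibroblast genes tested 3 were lower in Math1-GFP tumours, with sums of up to 1094 in Math1-GFP and up to 4726 in conventional cells. Other marker lists differed too. Of 8 oligodendrocyte lineage genes 2 were higher and 1 lower in Math1-GFP tumours, with sums of 2529.9 to 4013 in Math1-GFP CD15 positive, 1549 to 3173 in Math1-GFP CD15 negative, 1420.0 to 2172 in conventional CD15 positive and 1549 to 2313 in conventional CD15 negative cells. Of 10 astrocyte genes 3 were higher and 2 lower, and of 3 Purkinje cell and inhibitory neuron genes 1 was higher and 1 lower. The lowest signal of the whole table was 0.0247, so a signal above 0 does not show that a cell type was present. By their group medians, 5 to 7 of the 9 Purkinje cell and inhibitory neuron markers on the array lay below the level of the filter. The part of these cells in the guidance genes' values was not tested.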

How the data were processed

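Intensity per probe set, linear and with one column for each array, was deposited; how it was made from the scans is unstated in the labels. As its values show, the authors had scaled each array so that the mean after removing 2% at each end was 150. Intensities were used as deposited, as log2(signal + 32). The 64 control probe sets and the probe sets with several symbols (932) or none (9211) in the platform annotation were left out. Probe sets below the 40th percentile of mean log2 value were left out, and of several probe sets of a gene the brightest one was taken. Limma 3.58.1 in R 4.3.3 fitted 4 group means to all 21 arrays (17 residual degrees of freedom), with 5 contrasts and two-sided p-values, Benjamini-Hochberg adjusted over 12367 genes. The fit was tested on simulated data.

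The members and lists were chosen with earlier results of these data known. Named genes are all guidance genes that passed in a contrast, the gene of smallest p in each family without one, and up to 4 called genes of a transducer list in each direction; not all of the latter are printed. Exceptions are stated where they occur. Deviations from group means correlated at 0.583 to 0.757 in the 5 same-numbered conventional pairs and at most 0.396 in other pairs, each CD15 positive array being closest to its own number; the unnumbered pair correlated at 0.72. From this, and not from the labels, same-numbered arrays are treated as pairs in the fits with a block. The fit of 4 group means, which gave all values not said to come from another fit, has no block and ignores the pairing. Precision is limited by how many arrays there are. Alternatives included no filter or a 60th percentile one, pseudocounts of 1 and 128, quantile normalization, the fit of every probe set or of gene means, 2-group fits, trend and robust estimation, array weights, blocks, and leaving out arrays. Added after the data were seen were fits with only some of the conventional arrays.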

Additional observations from a re-analysis of the deposited data

Results flagged for a closer look

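Among the 29 named genes, 116 groups of 4 to 6 arrays were examined for an array far from the rest of its group, and 6 stood out by Dixon's criterion; chance gives about 1 in 20. Nrp2 was at 1.29 on the unnumbered conventional CD15 positive array, with 22.6 as the next value of its group. Plxna3 was at 285 on conventional CD15 negative array 5, with 191 as the next value; this array also had the highest neuronal sum of its group. Efna2 was at 334 on conventional CD15 positive array 5, with 250.1 next, and Plxnb1 at 71.8 on conventional CD15 positive array 4, with 115 next. Robo3 was at 56.8 on Math1-GFP CD15 negative array 10, with 9.35 next, and Epha2 at 35.3 on Math1-GFP CD15 negative array 2, with 70.8 next.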

How the results depend on the processing

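Over 53 named results and 40 alternatives, 1962 values were recomputed: 1780 kept their direction and side of the threshold, 147 lost the call, 31 gained it and 4 changed sign. Those 4 were Nrp2 between the Math1-GFP fractions without CD15 negative array 10 (0.013; -0.25 to 0.013 over the arrays left out), and Sema6a (-0.012), Sema3c (0.10) and Nrp1 (0.56) between the models with conventional arrays 6 and unnumbered alone; the cause was not tested. Leaving out each array in turn, the guidance genes that fell numbered 4 to 9 in conventional tumours (4 without CD15 negative array 5), 0 in Math1-GFP tumours and 5 to 9 in the average (5 without Math1-GFP CD15 positive array 5). Between models 5 to 10 were higher (5 without Math1-GFP CD15 negative array 2 or conventional CD15 positive array 2) and 3 to 6 lower (5 or 6 without Math1-GFP arrays 1 or 10 or any of the 4 conventional arrays that stood apart, except CD15 positive array 6). The shares of all genes that passed in these fits are not given here. The counts are therefore no result about the guidance genes in particular.

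The fit of conventional pairs as a replicate block gave 2 falls in Math1-GFP tumours, where 0.817% of all genes fell. With the unnumbered arrays as a pair it also gave 2, beside 0.898%. Between models 12 genes were lower with this block and 7 with the unnumbered pair, beside 25% of all genes in each fit. In the numbered arrays with no block 9 were lower between models, beside 21.9%, and 5 fell in conventional tumours, beside 4.03%. Consecutive Math1-GFP numbers as pairs, which the labels do not state, gave 19 falls in conventional tumours, beside 13.5% of all genes. That fit gave 4 falls in Math1-GFP tumours (4.17% of all genes), 19 in the average (16%) and 17 genes lower between models (30.7%). P-values between models are too small in these block fits, since the model does not vary within a pair. Array weights gave 2 falls in Math1-GFP tumours (0.889% of all genes) and 14 higher (24.1%) and 12 lower (25.8%) between models. The array set as a block gave 1 fall in Math1-GFP tumours (0.267% of all genes). Between models, 5 genes were lower after quantile normalization (24.7% of all genes) and 1 with probe sets averaged per gene (17.6%). Without Math1-GFP arrays 1 and 2, 6 were lower (18.9%). With every probe set 19 were higher, where a gene counts if any probe set passes and 26.8% of all probe sets were higher. Conventional arrays 2 to 5 alone gave 12 lower (25% of all genes). The 4 others gave 3 higher between models (9.83% of all genes) and 0 falls in conventional tumours, where 0 of all genes fell. The blocks changed no other count by over 1.5 times. Dim probe sets (Sema6b, Nrp2, Sema3c, Robo3), and that of Epha8 on conventional arrays 2 to 5, lie near background, where fold changes are least certain.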
